A study of Mus musculus with 3 samples.

Results

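Isl1, Isl2, Ldb1, Ldb2, Lmo1, Lmo2, Lmo3 and Lmo4 are the Islet factors and the LIM-binding and LIM-only proteins that work with them, and the binding of Isl1 at these 8 genes was read from 1 genome-wide list of Isl1 peaks. The members were chosen by name, because they encode Isl1, its closest relative and its cofactors, and the question was whether Isl1 occupies its own gene and the genes of its partners. Peaks whose assigned gene symbol was one of these names were kept after identical repeated lines were dropped, which gave 13 of 14082 distinct peaks. Of the 8 genes, 7 had an assigned peak and Lmo3 had none, set against 21027 protein-coding genes in all.

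Chromatin was taken from cardiac progenitors (CPCs) differentiated from mouse E14 Tg(Nkx2-5-EmGFP) embryonic stem cells (ESCs), which carry a green fluorescent reporter for the early cardiac gene Nkx2-5, and was crosslinked at day 5. The paper describes hanging drops and directed differentiation as routes to CPCs, and its ChIP-Seq methods do not name the route used. In directed differentiation the cells pass through BMP4, then Activin A with VEGF and BMP4, then VEGF, bFGF and FGF10 with ascorbic acid. The 3 samples were 2 chromatin immunoprecipitations with a monoclonal antibody to Isl1 (ChIP-Seq, in which antibody-bound chromatin is sequenced) and 1 input, which is the same kind of chromatin before the pulldown. All 3 samples came from the same reporter line, and the labels name no sort of the cells and no manipulation of Isl1. No RNA was measured in these samples, so neither the progenitor identity nor the expression of the 8 genes could be checked against markers here.

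Isl1 and Isl2 are LIM-homeodomain transcription factors, which join a homeodomain that reads TAAT-like DNA to LIM domains that hold other proteins. The LIM domains bind Ldb1 or Ldb2, adaptors that associate with themselves and can so bring distant bound sites together. Lmo1 to Lmo4 consist of LIM domains without a homeodomain, bind the same Ldb adaptors, and can compete with LIM-homeodomain factors for them or carry them to other DNA-binding partners such as Tal1 and the Gata factors. Isl1 marks progenitors of the second heart field, spinal motor neurons and endocrine pancreas, Isl2 marks motor neurons and retinal ganglion cells, and Lmo2 with Ldb1 is known from blood and endothelial progenitors.

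A peak in this list marks a place where peaks called over input in the 2 ChIP replicates overlapped. The authors' overlap step can keep the interval of 1 replicate, so the edges and centre need not be shared by both. A peak carries no score, height or read number. The depth of the libraries is therefore unknown, no error between replicates can be attached to any value, and the intervals given are 95% Wilson intervals for counting error alone. Distances are the deposited ones, from the peak to the assigned transcription start site (TSS), with positive values downstream. Positions are on mm9, and starts are uncertain by 1 bp because the list does not say whether it counts from 0 or 1.

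The sequences under the peaks fell into contrasting kinds, and the windows that show this are printed 5′ to 3′ on the sense strand of the assigned gene. The following windows lie under a distal peak of Isl1, called Isl1 peak 2 by its order along the chromosome, and under the Ldb2 peak. They are chr13:117034752-117035051 and chr5:44953168-44953287, both on the minus strand. Capitals mark the longest stretch made only of purines or only of pyrimidines.
Isl1 peak 2: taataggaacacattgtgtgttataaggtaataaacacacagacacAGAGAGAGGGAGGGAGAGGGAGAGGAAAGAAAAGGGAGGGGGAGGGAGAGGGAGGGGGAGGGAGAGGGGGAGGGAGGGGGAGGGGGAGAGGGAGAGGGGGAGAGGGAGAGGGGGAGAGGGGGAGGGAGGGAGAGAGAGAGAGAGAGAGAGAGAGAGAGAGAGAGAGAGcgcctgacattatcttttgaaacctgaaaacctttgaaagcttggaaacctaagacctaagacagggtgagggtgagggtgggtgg
Ldb2 peak 1: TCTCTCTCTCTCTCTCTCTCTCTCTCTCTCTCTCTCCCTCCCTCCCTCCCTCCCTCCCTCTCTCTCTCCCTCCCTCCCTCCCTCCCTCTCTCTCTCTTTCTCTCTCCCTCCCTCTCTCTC
Isl1 peak 2 carries a purine stretch of 168 bases, whereas the 120 bases shown of the Ldb2 peak are all pyrimidines, with 0% purines.

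The Isl2 peaks differ from these and from each other, and are shown because they lie at exon 3 of the gene, at its 3′ end and in a distant repeat. They are chr9:55390059-55390358, chr9:55393988-55394251 and chr9:55485651-55485950, on the plus strand. Capitals mark CANNTG, the E-box letters, in Isl2 peak 1, CCAAT on either strand in Isl2 peak 2, and TAAT in Isl2 peak 3.
Isl2 peak 1: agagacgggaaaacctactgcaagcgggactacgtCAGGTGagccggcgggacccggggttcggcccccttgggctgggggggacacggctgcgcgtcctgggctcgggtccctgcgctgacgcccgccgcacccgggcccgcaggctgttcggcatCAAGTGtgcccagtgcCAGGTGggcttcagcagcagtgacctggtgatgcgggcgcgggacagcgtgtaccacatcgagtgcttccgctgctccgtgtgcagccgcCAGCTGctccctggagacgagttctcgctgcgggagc
Isl2 peak 2: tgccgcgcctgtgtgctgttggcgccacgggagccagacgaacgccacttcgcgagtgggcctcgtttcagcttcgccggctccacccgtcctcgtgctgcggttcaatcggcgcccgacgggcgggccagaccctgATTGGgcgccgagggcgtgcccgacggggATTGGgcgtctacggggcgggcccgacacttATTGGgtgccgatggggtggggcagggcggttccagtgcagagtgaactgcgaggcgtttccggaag
Isl2 peak 3: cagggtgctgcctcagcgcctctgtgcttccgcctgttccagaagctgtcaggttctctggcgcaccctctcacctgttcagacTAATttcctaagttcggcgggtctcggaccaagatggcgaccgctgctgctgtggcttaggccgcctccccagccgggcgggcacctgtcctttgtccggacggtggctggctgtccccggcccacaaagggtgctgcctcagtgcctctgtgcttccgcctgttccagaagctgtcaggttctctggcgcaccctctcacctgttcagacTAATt
Isl2 peak 2 holds CCAAT 3 times, each time on the minus strand and so printed as its complement. Isl2 peak 3 repeats itself at an offset of 211 bp, where 87 of 89 compared bases matched (97.8%), and its TAAT strings sit at the same place in each copy.

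The promoter-type windows are shown for Ldb1 at chr19:46119705-46119823, for Lmo4 peak 2 at chr3:143865297-143865507 and for Lmo4 peak 3 at chr3:143868185-143868332. All are on the minus strand and limited to bases outside the untranslated regions of the mm9 annotation. RefSeq starts at chr19:46119801, chr3:143865360 and chr3:143868219 lie inside these windows, so part of each window lies within a RefSeq transcript. The promoters of Isl1 and Lmo1 come from RefSeq with the build GRCm38.p6, at chr13:116309639-116309938 and chr7:109175158-109175457 on the minus strand, and run from 250 bases before to 50 bases after the TSS. Capitals mark GGGCGG, the GC-box letters, on either strand in the Lmo4 windows, and TAAT on either strand in the others.
Ldb1 peak 1: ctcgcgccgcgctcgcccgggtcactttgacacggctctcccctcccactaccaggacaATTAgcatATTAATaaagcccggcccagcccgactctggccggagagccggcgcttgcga
Lmo4 peak 2: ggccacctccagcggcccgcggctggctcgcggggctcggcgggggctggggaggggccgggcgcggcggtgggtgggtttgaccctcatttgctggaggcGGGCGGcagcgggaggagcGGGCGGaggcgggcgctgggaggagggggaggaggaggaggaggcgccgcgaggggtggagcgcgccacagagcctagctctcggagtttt
Lmo4 peak 3: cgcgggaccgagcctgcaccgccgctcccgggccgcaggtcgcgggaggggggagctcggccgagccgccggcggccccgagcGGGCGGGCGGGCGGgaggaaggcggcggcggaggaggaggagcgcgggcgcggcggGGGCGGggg
Isl1 promoter: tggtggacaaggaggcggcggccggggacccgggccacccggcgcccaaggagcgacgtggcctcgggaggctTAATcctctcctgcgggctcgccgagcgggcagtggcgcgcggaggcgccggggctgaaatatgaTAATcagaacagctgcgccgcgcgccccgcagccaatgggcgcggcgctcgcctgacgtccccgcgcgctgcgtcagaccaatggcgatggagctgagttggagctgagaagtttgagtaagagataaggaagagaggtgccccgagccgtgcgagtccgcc
Lmo1 promoter: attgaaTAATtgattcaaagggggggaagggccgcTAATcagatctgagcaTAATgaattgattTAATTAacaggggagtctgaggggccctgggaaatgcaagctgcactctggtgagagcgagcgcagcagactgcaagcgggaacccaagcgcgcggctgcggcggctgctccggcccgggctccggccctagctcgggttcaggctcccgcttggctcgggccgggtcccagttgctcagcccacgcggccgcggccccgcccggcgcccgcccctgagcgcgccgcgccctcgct
The Ldb1 window holds TAAT 3 times within a short stretch just upstream of the deposited TSS and downstream of the RefSeq start at chr19:46119801. The Lmo4 windows hold GGGCGG and no TAAT. The Isl1 promoter, which no peak overlapped, holds TAAT 2 times.

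Isl1 peaks were assigned to 7 of the 8 genes (87.5%, interval 52.9 to 97.8), where 39.0% of all protein-coding genes had an assigned peak. Isl1, Isl2 and Lmo4 had 3 peaks each, and Ldb1, Ldb2, Lmo1 and Lmo2 had 1 each. Among all genes, 4.14% had 3 or more peaks, as did 10.6% of the genes with a peak. A peak within 1 kb of the TSS was present at 4 of the 8 genes, namely Ldb1, Lmo1, Lmo2 and Lmo4, against 24.2% of all genes. Within 10 kb the count was 5 of 8, with Isl2 added, against 28.3%. At any distance, with multi-copy peaks as defined below set aside, the count was 6 of 8, without Ldb2, against 28.7%. By that definition, Isl1 stayed among the 6 through Isl1 peak 1 alone, which holds telomere repeats. Isl1 peak 2 lay at the cutoff, since its centre had a median of 2 copies and the whole peak 1.

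The genes hold unequal amounts of genome, which bears on how many peaks a nearest-gene rule gives them. The stretch closer to a gene's own TSSs than to those of any other protein-coding gene measured 809 kb for Lmo4, 370 kb for Isl1, 370 kb for Ldb2, 338 kb for Lmo3, 178 kb for Lmo1, 122 kb for Lmo2, 29.1 kb for Ldb1 and 24.1 kb for Isl2. The median gene had 45.7 kb, so 6 of the 8 genes lay above the median gene and Isl2 and Ldb1 below it. Summed over the 8 genes the stretches came to 2239 kb and held 11 of the 13 peaks, since 1 peak of Isl1 and 1 of Isl2 lay closer to the start of another gene. This was 4.91 peaks per Mb, against 5.50 per Mb of the whole genome. Counting single-copy peaks alone over the same lengths of sequence, the values were 3.57 peaks per Mb for the 8 genes, from 8 peaks, and 2.95 for the genome. By gene the stretches held 83.0 peaks per Mb for Isl2, 34.4 for Ldb1, 8.22 for Lmo2, 5.63 for Lmo1, 5.41 for Isl1, 3.71 for Lmo4, 2.70 for Ldb2 and 0 for Lmo3, each from 3 peaks or fewer. None of these differences was tested.

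By distance, 5 of the 13 peaks lay within 1 kb of the TSS, 3 at 1 to 10 kb and 5 over 10 kb. In the whole list these classes held 38.5%, 10.5% and 51.1% of the peaks. All 13 had a positive distance, so that each midpoint lay downstream of the assigned TSS. In the whole list 64.3% of peaks did, with 80.9% within 1 kb, 58.1% at 1 to 10 kb and 53.1% over 10 kb.

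**Figure D1:**
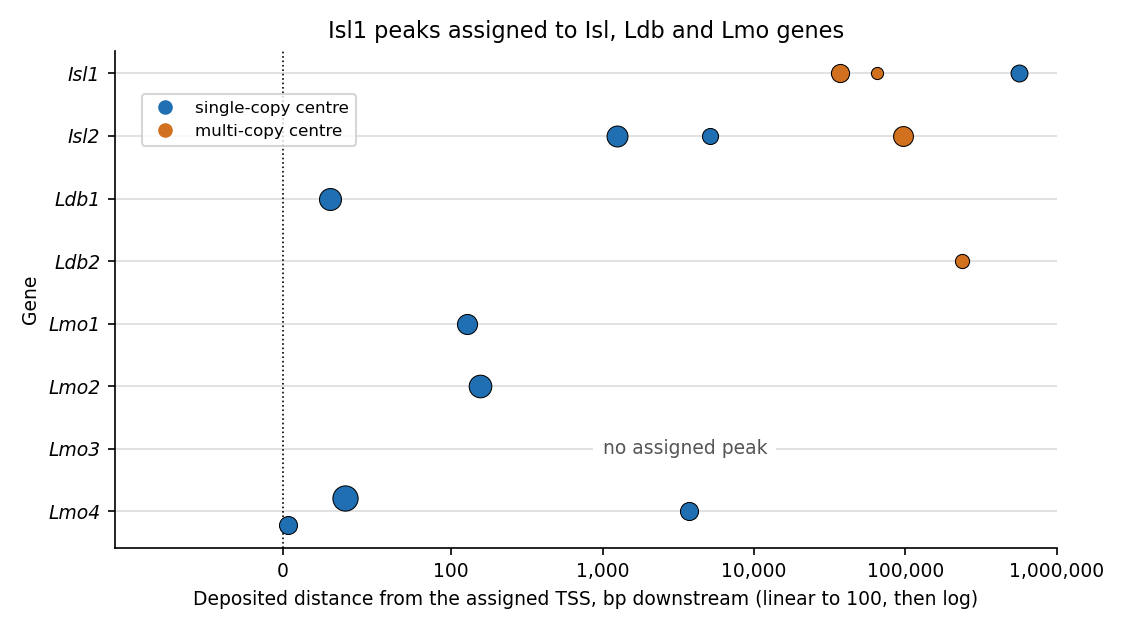
Deposited distance in bp from the assigned TSS (horizontal axis, linear to 100 bp and logarithmic beyond) of each of the 13 peaks, by gene, with larger points for wider peaks and colour for single-copy or multi-copy centres. The 4 multi-copy peaks lie over 10 kb from their TSS, 2 at Isl1 and 1 each at Isl2 and Ldb2, and Lmo3 has no peak.

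The Isl1 gene, which lies on the minus strand at chr13:117088478-117099896, had no peak over its body or its promoter. Its 3 peaks were all intergenic and all beyond its 3′ end. Isl1 peak 3 was the nearest, 37260 bp from the TSS and 25842 bp past the end of the gene. Isl1 peak 2, at chr13:117034731-117035071, lay 64995 bp from the TSS and 53577 bp past the end. Isl1 peak 1 lay 567286 bp from the TSS and was 411363 bp from the TSS of the predicted gene Gm6404, so that by the mm9 annotation used here it was closer to Gm6404 than to Isl1.

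The 3 Isl1 peaks differed in how much repeated sequence they held. Copy number was measured as the median count in the genome of the 31-base words in the central 200 bp, and a median of 2 or more was called multi-copy. Isl1 peak 2 had a median of 2 copies, at the cutoff, Isl1 peak 3 had 66.5, and Isl1 peak 1 had 1. Over the whole peak the medians were 1, 19 and 1 in the same order. A median of 1 does not mean free of repeats, since Isl1 peak 1 held 6 units of the telomere repeat TTAGGG in a row. At least 4 such units in a row were found in 120 of all peaks (0.852%), 102 of them single-copy. In the central 300 bp, tandem repeats with units of 1 to 6 bases covered 26.3%, 55.3% and 99.7% of Isl1 peaks 1, 2 and 3. These values exceeded those of 68.2%, 80.1% and 99.4% of the peaks over 10 kb, a class in which 81.2% of peaks were multi-copy.

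The 3 Isl1 peaks were narrower than the median peak. Isl1 peak 2 was 340 bp wide, and only 0.533% of all peaks were narrower. Isl1 peaks 1 and 3 were 656 and 759 bp wide, where the median peak was 947 bp wide with an interquartile range of 717 to 1243 bp. Isl1 peak 1 had a GC content of 43.0%, below all but 1.31% of the peaks. Isl1 peak 2 had 3 TAAT strings outside its purine stretch and 1 AGATAA.

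The promoter of Isl1, which overlapped no peak, was set beside promoters of like GC content. Its 300 bp had a GC content of 69.0%, with 2 TAAT, 1 AGATAA and 2 CCAAT strings. Of the 2155 RefSeq promoters whose GC content lay within 2.5 percentage points of it, 1232 (57.2%) overlapped a peak, and the Isl1 promoter did not. A missing peak says only that enrichment did not reach the caller's cutoff there in at least 1 of the replicates.

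Isl2, at chr9:55386479-55393987 on the plus strand, had a single-copy peak within the gene and another across its 3′ end. Isl2 peak 1, at chr9:55389705-55390711, was 1006 bp wide and lay 1252 bp from the deposited TSS, with its midpoint in coding exon 3 of the 6 exons of the transcript Isl2-001. The annotated start of the short transcript Isl2-005 fell inside this peak, 65 bp from its midpoint. Isl2 peak 2, at chr9:55393804-55394399, was 595 bp wide, spanned the 3′ end of the gene and had its midpoint 114 bp past it. The exon peak and the 3′ peak were 3093 bp apart.

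Both of these Isl2 peaks were rich in CpG. Isl2 peak 1 had a GC content of 70.0% and 29 CpG dinucleotides in its central 300 bp, 0.794 times the number expected from its base composition. Isl2 peak 2 had 65.0% and 34 CpG, a ratio of 1.08, above 93.6% of the peaks at 1 to 10 kb. Isl2 peak 1 held CANNTG 4 times, 1 of them as CAGCTG, and no TAAT, while Isl2 peak 2 held GGGCGG 3 times, CCAAT 3 times and TAAT 1 time.

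Isl2 peak 3, at chr9:55485347-55486254 and 907 bp wide, was assigned to Isl2 at 96844 bp but lay in an intron of the neighbouring gene Scaper, whose TSS was closer at 81210 bp. Its centre had a median of 1081 copies in the genome, and it repeated itself as described above. The RefSeq promoter of Isl2, with a GC content of 67.3%, overlapped no peak, and 48.7% of promoters of like GC content did.

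Among the adaptors, Ldb1 and Ldb2 had peaks of opposite kinds. The Ldb1 peak, at chr19:46119117-46120230, was 1113 bp wide and centred 28 bp from the deposited TSS, in the untranslated part of exon 1 of the 11 exons of Ldb1-002 and Ldb1-007. It covered 3 of the 7 annotated starts of Ldb1 and also the start of the transcript Pprc1-005 of the neighbouring gene Pprc1, which encodes a coactivator of the PGC-1 family, so a nearest-gene rule cannot tell these genes apart there. Its centre was single-copy, with a GC content of 68.7% and a CpG ratio of 1.11, above 92.1% of the peaks within 1 kb.

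Of the 5 peaks within 1 kb of a TSS, that of Ldb1 alone held TAAT in its central 300 bp. Its TAAT strings were centred at -51, -53 and -61 bp from the deposited TSS. The outermost was part of a longer LIM-homeodomain type string, CTAATTG, centred at -62. By the RefSeq start at chr19:46119801 these strings lie downstream of the TSS. CTAATTG on either strand occurred in 0.312% of all peaks and 0.240% of the peaks within 1 kb, and TAAT in 9.18% of the latter. The peak overlapped 1 of the 3 RefSeq promoters of Ldb1, with a GC content of 71.3%, and neither of the other two, with 67.3% and 51.0%. Promoters of like GC content overlapped a peak in 68.5%, 48.7% and 5.78% of cases.

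The Ldb2 peak, at chr5:44952996-44953459, lay in intron 2 of the gene, 237758 bp downstream of the TSS and 89855 bp before the gene's end. It was 463 bp wide, and 4.18% of all peaks were narrower. The median copy number of its centre was 1950 and that of the whole peak 1, its longest pyrimidine stretch was 179 bases, and tandem repeats covered 70.7% of the central 300 bp. It held 0 CpG dinucleotides and none of the strings searched. No peak lay within 100 kb of an Ldb2 TSS.

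Of the LIM-only genes, Lmo1, Lmo2 and Lmo4 had promoter peaks and Lmo3 had no peak. The Lmo1 peak, at chr7:116318132-116319057, was 925 bp wide and centred 127 bp from the deposited TSS. The mm9 annotation placed the only Lmo1 start 4772 bp away, so by it the peak was intergenic, while both RefSeq promoters of Lmo1, matched base for base to mm9, overlapped it. Its centre had a GC content of 77.7%, 47 CpG and GGGCGG 5 times. The TAAT strings of the Lmo1 promoter printed above lay at its upstream edge and outside the central 300 bp, in which the peak had 0.

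The Lmo2 peak, at chr2:103810011-103811189, was 1178 bp wide and centred 156 bp from the TSS of the shorter Lmo2 transcripts. It covered 5 of the 10 annotated starts, with its midpoint in the untranslated part of exon 1 of 3 transcripts, among them Lmo2-002 and Lmo2-004. The midpoint also lay within the annotated gene 4931422A03Rik, of which no start fell inside the peak. The most upstream start, that of Lmo2-007, was 12457 bp away and had no peak. Its centre had a GC content of 73.3% and a CpG ratio of 0.997, and held CAGCTG 2 times, at +100 and +170 from the TSS, and no TAAT or GATA.

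Lmo4, at chr3:143851494-143868184 on the minus strand, had 3 single-copy peaks within 7723 bp. Lmo4 peak 3, at chr3:143867450-143868915, was 1465 bp wide, the widest of the 13 and wider than 85.9% of all peaks, and was centred 37 bp from the TSS in exon 1. Lmo4 peak 2, at chr3:143864984-143865730, was 746 bp wide and centred 3 bp from a start inside the gene, in intron 1 of Lmo4-001. Lmo4 peak 1, at chr3:143861192-143861945, was 753 bp wide and lay 3728 bp downstream of its assigned start, in an intron, and no annotated start fell inside this peak. The gaps between them were 1720 and 3039 bp.

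Together the Lmo4 peaks covered 5 of the 6 annotated starts of the gene. Their GC contents were 70.7%, 69.3% and 78.0% for peaks 1, 2 and 3, and their CpG ratios 0.905, 0.827 and 0.996. GGGCGG occurred 2 times in the centre of peak 2 and 4 times in that of peak 3, and TAAT 1 time in peak 1 and not in the others. Lmo4 peak 2 had a purine stretch of 27 bases, longer than in 97.5% of the peaks within 1 kb. All 3 RefSeq promoters of Lmo4 overlapped a peak, as did 90.6%, 77.8% and 73.1% of the promoters of like GC content.

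Lmo3, which spans 219051 bp at chr6:138311439-138530489 and has 8 annotated starts, had no assigned peak. The nearest peak to any of its starts was 165813 bp away, at chr6:138695869-138696736, and was assigned to Igbp1b. The RefSeq promoter of Lmo3 had a GC content of 50.0%, and 4.68% of promoters of like GC content overlapped a peak.

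**Figure D2:**
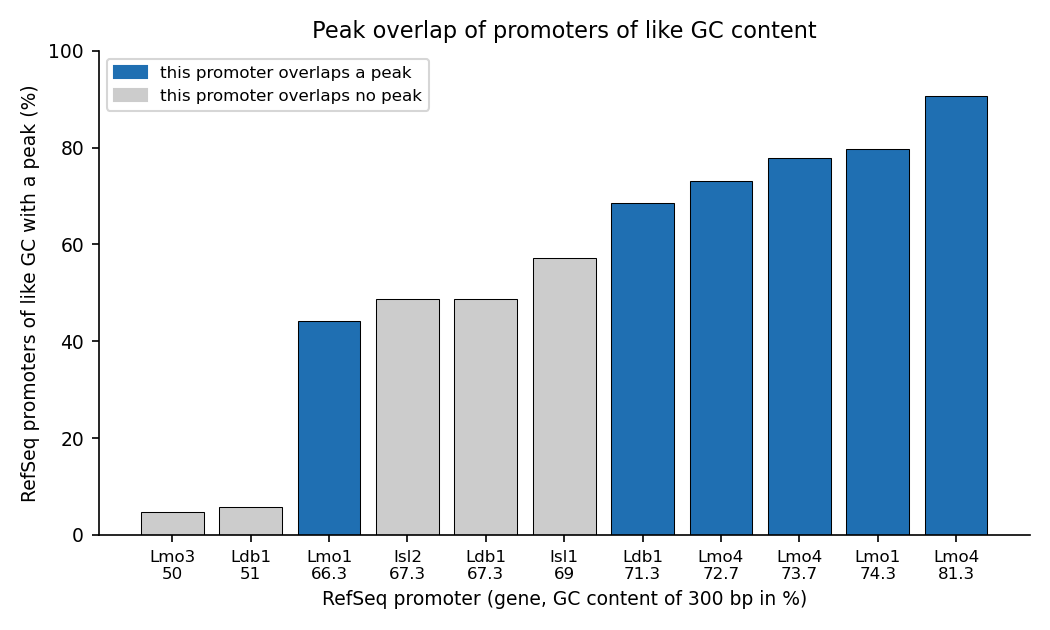
Share (vertical axis, %) of RefSeq promoters within 2.5 percentage points of GC content that overlapped an Isl1 peak, for each of the 11 matched promoters of Isl1, Isl2, Ldb1, Lmo1, Lmo3 and Lmo4 in order of their GC content (%, under each gene). Blue bars are the 6 member promoters that overlapped a peak and grey bars the 5 that did not. The share runs from 4.68% at Lmo3 to 90.6% at an Lmo4 promoter. The Lmo1 promoters overlap each other, as do some Lmo4 promoters.

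RefSeq promoters were given for 6 of the 8 genes, none being given for Lmo2 and Ldb2, and all 11 matched mm9 exactly. Of these 11, 6 overlapped a peak, against 24.5% of all 20002 matched promoters, and by gene 3 of 6, against 26.0%. The overlapped promoters belonged to Ldb1, Lmo1 and Lmo4. In order of GC content the 5 highest all overlapped a peak, and of the other 6 only an Lmo1 promoter of 66.3% did. The 11 windows are not all separate. The Lmo1 windows, with TSSs at 116318721 and 116318663, overlap each other under the same peak. So do the Lmo4 windows with TSSs at 143865360 and 143865296. GC content and the share of promoters with a peak moved together across the genome, and its part in these results was not tested.

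Across the 13 peaks, composition followed distance. The 5 peaks within 1 kb had GC contents of 68.7% to 78.0% with a median of 73.3%, close to the 73.7% of all peaks in that class, and a median CpG ratio of 0.997 against 0.923. The 3 peaks at 1 to 10 kb had GC contents of 65.0% to 70.7%. The 5 peaks over 10 kb had GC contents of 43.0% to 62.3% with a median of 55.3%, against 62.7% for the class, and a median CpG ratio of 0.0947 against 0.550. Among the 13, the 5 peaks within 1 kb each lay above the 5 over 10 kb in GC content and in CpG ratio. In the whole list these classes did overlap. Their GC contents ran from 43.0% to 88.3% within 1 kb and from 24.7% to 87.3% over 10 kb. Their CpG ratios ran from 0 to 1.875 and from 0 to 2.91.

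**Figure D3:**
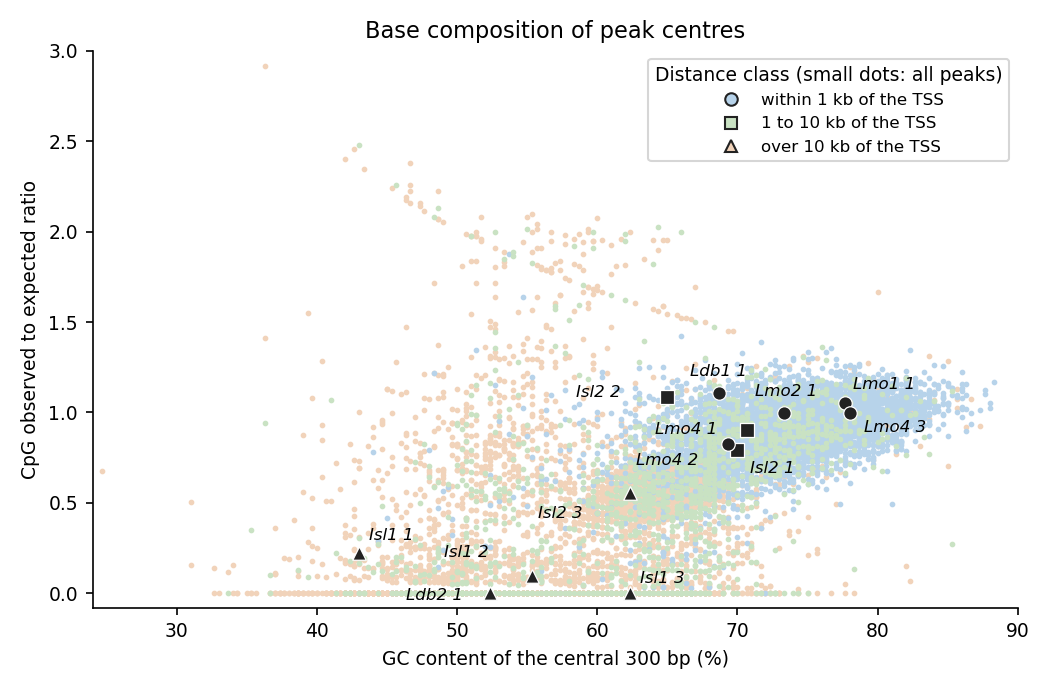
GC content (horizontal axis, %) and the ratio of observed to expected CpG (vertical axis) in the central 300 bp of every peak, coloured by distance class, with the 13 peaks of the Isl, Ldb and Lmo genes as black symbols named by gene and peak number. The promoter peaks of Ldb1, Lmo1, Lmo2 and Lmo4 lie at 68.7% GC and above. The distal peaks of Isl1 and Ldb2 lie at 62.3% and below with CpG ratios of 0.224 or less. The distal Isl2 peak 3 lies at 62.3% with a CpG ratio of 0.556.

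Multi-copy centres and long stretches of purines or pyrimidines were found, among the 13, in the distal class alone. Tandem repeats were not, and covered 4.33% to 18.3% of the central 300 bp in the 5 peaks within 1 kb. The median of all peaks within 1 kb was 4%. When stretches of at least 20 bases were required, the median of the 13 peaks fell from 8% to 0%. Multi-copy centres were found in 4 of 13 peaks, against 46.5% of all peaks. They were 4 of the 5 peaks over 10 kb from the TSS, where 81.2% of all such peaks were multi-copy, against 38.4% of those at 1 to 10 kb and 2.62% of those within 1 kb. Purine-only or pyrimidine-only stretches of at least 100 bases were found in 3 of the 13, namely Isl1 peaks 2 and 3 and the Ldb2 peak, against 11.8% of all peaks, 19.9% of those over 10 kb and 0.462% of those within 1 kb. The members' count of multi-copy peaks was below the share of the whole list. Over 10 kb, at 4 of 5, it was near the 81.2% of that class. The members and the list differ in their mix of distances, and no difference was tested. With 75-base words all 13 peaks had a median copy number of 1, so each differed from its relatives over that length.

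The strings sought in the central 300 bp on both strands are given with their share among all peaks. TAAT was found in 6 of 13 peaks (26.4% of all peaks), CANNTG in 7 (52.3%), its form CAGCTG in 3 (12.9%), GGGCGG in 7 (51.1%), GATA in 2 (17.7%), AGATAA, which contains GATA, in 1 (2.57%), CCAAT in 1 (16.8%) and TATAAA in 1 (1.79%). CTAATTG, which contains TAAT, was found in 1 and CTAATG in 0, against 0.312% and 1.18% of all peaks. By distance, TAAT was in 1 of the 5 peaks within 1 kb, 2 of the 3 at 1 to 10 kb and 3 of the 5 farther away, where all peaks gave 9.18%, 23.7% and 39.9%. GGGCGG was in 5 of the 5 peaks within 1 kb, where 79.7% of all such peaks held it. A match is a string of letters in a window and says nothing of which protein was bound.

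The neighbourhoods of the genes held few other peaks. Within 100 kb of an annotated start of a member lay 15 peaks, of which 11 were assigned to that member. The other 4 were 3 around Ldb1, assigned to 9130011E15Rik, Hps6 and Elovl3 and lying 36549, 31133 and 91346 bp from the nearest Ldb1 start, and 1 near Lmo2, assigned to Fbxo3 at 44444 bp. The 3 around Ldb1 were single-copy, with a median of 1, and the Fbxo3 peak had a median of 1860 copies. Isl1 peak 1 and the Ldb2 peak were the members' own peaks that lay beyond 100 kb.

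Related genes were counted in the same way. Of 10 other LIM-homeodomain genes, relatives of Isl1 that also bind Ldb adaptors, 8 had a peak (80.0%, interval 49.0 to 94.3), 6 of them within 1 kb. The nearest were at Lhx2 (87 bp), Lhx6 (102 bp), Lhx1 (197 bp), Lmx1b (-272 bp) and Lhx4 (-560 bp), Lhx5 and Lhx9 had multi-copy peaks alone, and Lhx3 and Lhx8 had none. Of 16 genes for partners of Ldb and Lmo complexes, 14 had a peak (87.5%, interval 64.0 to 96.5), 9 of them within 1 kb, and Tal2 and Gata1 had none. Rlim and Gata3 had multi-copy peaks alone, so 12 of the 16 had a single-copy peak, against 28.7% of all genes. Among these were the Ssbp genes, whose products stabilise Ldb proteins, with Ssbp4 at 104 bp and Ssbp2 at 212 bp, and the E-protein genes Tcf4 and Tcf12, which had 3 peaks each, as did Lyl1. Deaf1, whose product binds Lmo4, had a peak at -63 bp, and Rbbp8 at 141 bp.

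Genes for other proteins with LIM domains, which mostly act at the cytoskeleton and do not belong to the Ldb system, gave 16 of 40 (40.0%, interval 26.3 to 55.4), 14 of them within 1 kb. Among these were Fhl2 at -12 bp, Prickle2 at 25 bp, Pdlim7 at 41 bp, Pdlim2 at 52 bp and Prickle1 at 68 bp, and Lmo7 had most peaks with 4. The share for all genes was 39.0%, and 24.2% of all genes had a peak within 1 kb. No list was tested against it or against another list, because the genes were chosen with earlier results of these data known, and the intervals cover counting error alone.

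**Figure D4:**
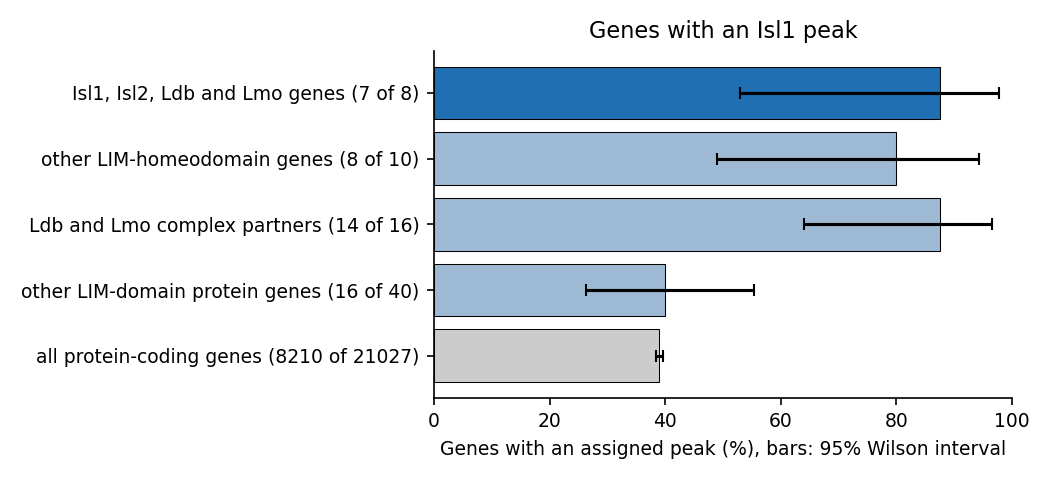
Share of genes (horizontal axis, %) with an assigned Isl1 peak in the 8 Isl, Ldb and Lmo genes, 3 related lists and all protein-coding genes; black bars are 95% Wilson intervals. The 8 genes (87.5%), other LIM-homeodomain genes (80.0%) and complex partners (87.5%) lie above other LIM-domain genes (40.0%) and all genes (39.0%).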

How the data were processed

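Isl1 ChIP-Seq was carried out on ESC-derived CPCs at day 5, with 2 ChIP replicates and 1 input, grouped by their titles. The authors aligned reads to mm9 with Bowtie2, removed duplicates with Picard (version 1.136), called peaks in each replicate with MACS14 without a fragment model, dropped blacklisted regions, kept areas common to both replicates with bedtools (version 2.15) and assigned the closest TSS with HOMER. The deposited list gives genome positions and distances in bp, with no score, ratio or read number. Depth is therefore unknown, and peaks under the cutoff in either replicate are missing. Bowtie2 was run at its defaults, which report 1 alignment per read and choose at random among equally good places, and this bears on repeated sequence.

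Of 14165 lines, 14082 were distinct, and 0 ran past a chromosome end. Sequence came from the NCBI m37 assembly, which is mm9, and gene models from GENCODE. The closest protein-coding TSS of GENCODE gave the same gene as the list for 72.6% of peaks. Gene classes and promoters came from RefSeq tables of GRCm38.p6. Of 9313 gene names in the list, 9294 matched, and of 20483 promoters 20002 (97.7%) matched exactly 1 place in mm9. The gene background was the 21027 protein-coding genes with a curated RefSeq transcript.

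Copy number was the median genomic count, on both strands, of 31-mers in the central 200 bp. Composition and strings were read in the central 300 bp, and a percentile is the share of peaks with a smaller value. Tandem repeats were stretches of at least 12 bases with a period of 1 to 6 bases. Like GC content meant within 2.5 percentage points. The scripts, in Python 3.11.15 with numpy 2.4.6, pandas 2.3.3 and pysam 0.24.0, were checked on simulated data. No test was run. The sequences of some peaks are not reported here. Named genes were the 8 members and genes holding other peaks within 100 kb of a member TSS. In each list they were the 5 nearest genes within 1 kb and up to 3 with most peaks. Genes without a peak, Lhx5, Lhx9, Rlim, Gata3, Gm6404, Scaper, Pprc1 and 4931422A03Rik were added after their values were seen.

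The members and lists were chosen with earlier results of these data known. Measures of purine or pyrimidine stretches, tandem repeats, telomere units, self-matches, downstream position and promoters of like GC content were chosen after the sequences or values were seen. Alternatives were other distances, another assignment, peaks at least 500 bp wide and peaks joined across gaps of up to 1000 bp. Others were 75-mers, tandem stretches of at least 20 bases, and narrower windows or whole peaks.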

Additional observations from a re-analysis of the deposited data

How the results depend on the processing

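Of 45 alternative values for 20 results, 34 stayed within 1.5 times the reported count or within the spread of the reported values, and 11 did not. Genes with a peak fell from 7 to 4 when only peaks within 1 kb counted, and the complex partners fell from 14 to 9. Multi-copy peaks among the 13 fell from 4 to 2 when the whole peak was read and to 0 with 75-mers. Reading the whole peak, a longer window, raised the peaks with TAAT from 6 to 12, CTAATG from 0 to 2, GATA from 2 to 9, AGATAA from 1 to 3, CANNTG from 7 to 12, CCAAT from 1 to 7 and TATAAA from 1 to 2. No paired analysis was possible because the deposited list combines both ChIP replicates and the input is 1 sample. Leaving out a replicate was not possible for the same reason. Without scores or depth, weak peaks cannot be told from strong ones, a missing peak is not absence of binding, and an assigned gene is the nearest TSS, not a shown target.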
